A study of Mus musculus with 4 samples.

Results

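The effect of NXD30001 on cultured Schwann cells that lack Nf2 was described across all genes, by setting 1 library of treated cells against 1 library of solvent-treated cells. NXD30001 is named in the series title as an inhibitor of the chaperone HSP90. The cells, ESC-FC1801, were embryonic Schwann cells of FVB/N mice that carried Nf2Flox/Flox, and Ad-Cre, an adenovirus that delivers Cre recombinase, had made them Nf2-/- in vitro. By the labels both cultures lacked the gene, so none of what follows compares Nf2-null with normal cells, and all of it rests on 1 cell line. Both were grown without serum in N2 medium with neuregulin-β1, forskolin, gentamycin and fungizone. The control received DMSO and the other culture 1 µM NXD30001, each for 24 h. The series held 4 libraries, of which the other 2 came from tumours and are not described here.

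Genes were kept where the deposited table gave status OK and at least 1 FPKM in either culture library. FPKM counts fragments relative to the length of the transcript and the size of the library. This left 12676 of 35604 rows. The value of a gene was its log2(FPKM + 1) with NXD30001 minus that with DMSO, a scale that understates the difference of low genes. On it, 1 stands for a 2-fold and 2 for a 4-fold difference. Pairs of levels are given as DMSO against NXD30001. With 1 library per group there was no replicate error and no test, and "higher" and "lower" describe these libraries. The error given for some genes is implied by the authors' deposited fold and statistic, in log2 units, and covers no biological spread. Fewer cells of a kind and less RNA per cell cannot be told apart in such bulk libraries. Where the locus the table gives for a gene is also given for another row, fragments of the 2 rows cannot be told apart with certainty, and such genes are named at the end of a paragraph. Kntc1, Cenpn, Srp14, Rsad2, Copa, Copb2, Yap1, Wwtr1, Nf2 and Mbp were chosen for naming after their values were seen.

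HSP90 holds many kinases, receptors and transcription factors in a form that can be activated, and cells whose HSP90 is blocked typically activate the heat shock factor HSF1. Schwann cells wrap the axons of peripheral nerves. They divide as immature cells, exit the cell cycle and then make myelin, and after injury they return to a repair state that secretes neurotrophic factors. Merlin, the product of Nf2, restrains growth signals at the cell cortex, and its loss in this lineage gives rise to schwannomas.

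The labelled cell type was checked against marker lists. Of 14 Schwann cell markers 13 were compared. Sox10, the lineage's defining transcription factor, was at 8.42 against 4.4 FPKM, and the myelin gene Pmp22 at 669.9 against 2777 FPKM. Of the 13 compared markers 11 were lower and 2 higher after NXD30001. S100b, a widely used Schwann cell marker, was under 1 FPKM in both libraries. The summed level of the list was 1011 against 3342 FPKM, and Pmp22 made up most of it. Markers of most other cells were near the floor. Ptprc of leukocytes, Cdh5 and Vwf of endothelium, Tyr and Dct of melanocytes, Krt5, Krt14 and Epcam of epithelium and Myod1 and Myog of muscle were all listed at 0 in both libraries. The summed levels were 2.61 against 2.69 FPKM for endothelial markers, 2.62 against 2.27 FPKM for leukocyte markers and 19.9 against 9.86 FPKM for neuron markers, the latter mostly from the synaptic vesicle gene Syp. The 2 compared endothelial markers, Tek and Egfl7, lay in opposite directions, with differences of 1.63 and -1.23. The authors' deposited table called Tek only, and the locus of 1 of the 2 is also that of another row. Of 15 fibroblast markers 6 were compared. The collagen genes Col1a1, Col1a2 and Col3a1 were abundant, while Dcn and Lum were at most 0.272 FPKM and Thy1, Dpt and Twist1 were at 0. The sum of the fibroblast list was 1325 against 1139 FPKM. Whether such cells had a part in the collagen values below was not tested. The melanocyte gene Tyrp1 was at 0.0577 against 9.69 FPKM, a difference of 3.34. The locus of Syp is also that of another row.

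More genes were lower than higher after NXD30001. At least 2-fold lower levels were found for 3149 genes, 24.8% of those compared, and at least 2-fold higher levels for 1603, or 12.6%. The median difference was -0.25, the middle 50% of genes lay between -0.996 and 0.47, and 5% of genes were below -2.48 and 5% above 1.66. Differences of 16-fold or more were seen for 206 lower and 107 higher genes. Centring the differences on their median gave 2331 lower and 2256 higher genes, so that the proportion of lower genes past 2-fold depended on the scale, at 66.3% as deposited and 50.8% when centred. A list with a median of -0.25 is therefore level with the rest of the transcriptome. The counts of a list past 2-fold are likewise to be read beside 24.8% lower and 12.6% higher. The authors' deposited table called 905 genes lower, 7.14% of those compared, and 349 higher, or 2.75%. Such a call compares the reads of 2 libraries and not the conditions.

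**Figure D1:**
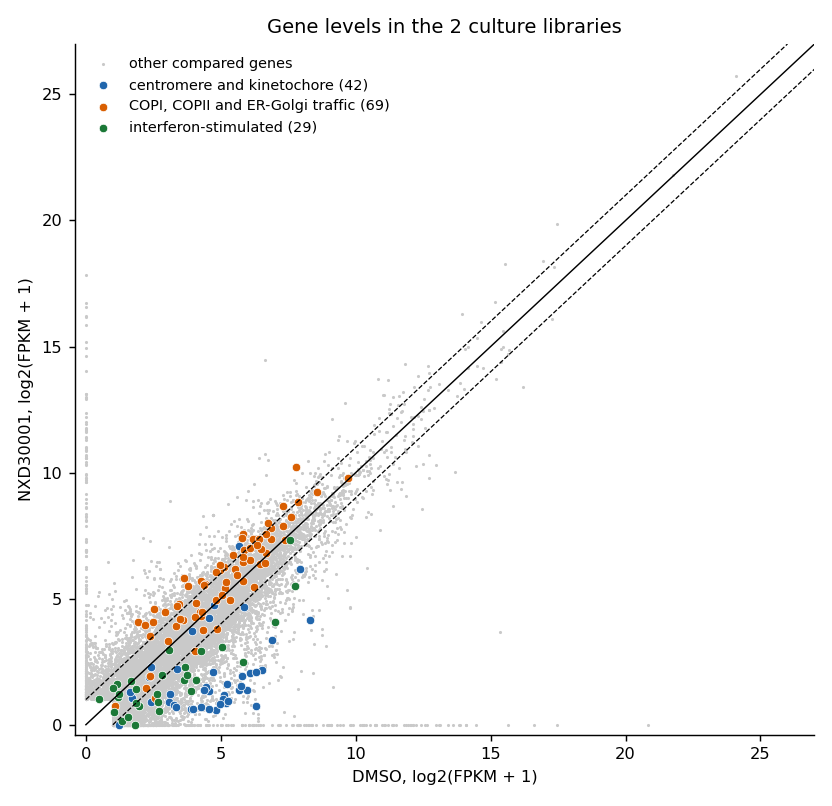
Each point is a compared gene, with log2(FPKM + 1) in the DMSO library on the x axis and in the NXD30001 library on the y axis; the solid line marks equal levels and the dashed lines 2-fold differences. Of the coloured lists, 34 of 42 kinetochore genes lie below the lower dashed line, 25 of 69 COPI, COPII and ER-Golgi genes above the upper one, and 17 of 29 interferon-stimulated genes below the lower one.

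What a row represented mattered for the extremes. Rows with a clone, predicted, small RNA or blank symbol made up 3383 of the compared rows, and 387 of the 711 rows that reached 300 FPKM in either library. Among these 387 rows 29.2% were at least 2-fold higher, 34.1% were at least 2-fold lower and 115 were listed at 0 in 1 library. Among the 324 rows of that level with a gene symbol the shares were 19.1% and 16.0%, and 1 was listed at 0. The row labelled mt-Atp6 had the highest level of all rows with a gene symbol, but its locus is on chromosome 1 from 24621346 to 24621490 and not on the mitochondrial genome. The row was kept in the counts and rankings, with rank 1 in both libraries at 3.53e+06 against 3.64e+06 FPKM. It is not named again below. For genes with a symbol at all levels, the median difference was -0.19, with 12.2% at least 2-fold higher and 22.4% lower by as much. By chromosome, the share of genes at least 2-fold lower ran from 19.1% (chromosome 15) to 28.4% (chromosome 13), and that of genes at least 2-fold higher from 9.68% (chromosome 9) to 17.04% (chromosome 19).

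**Figure D2:**
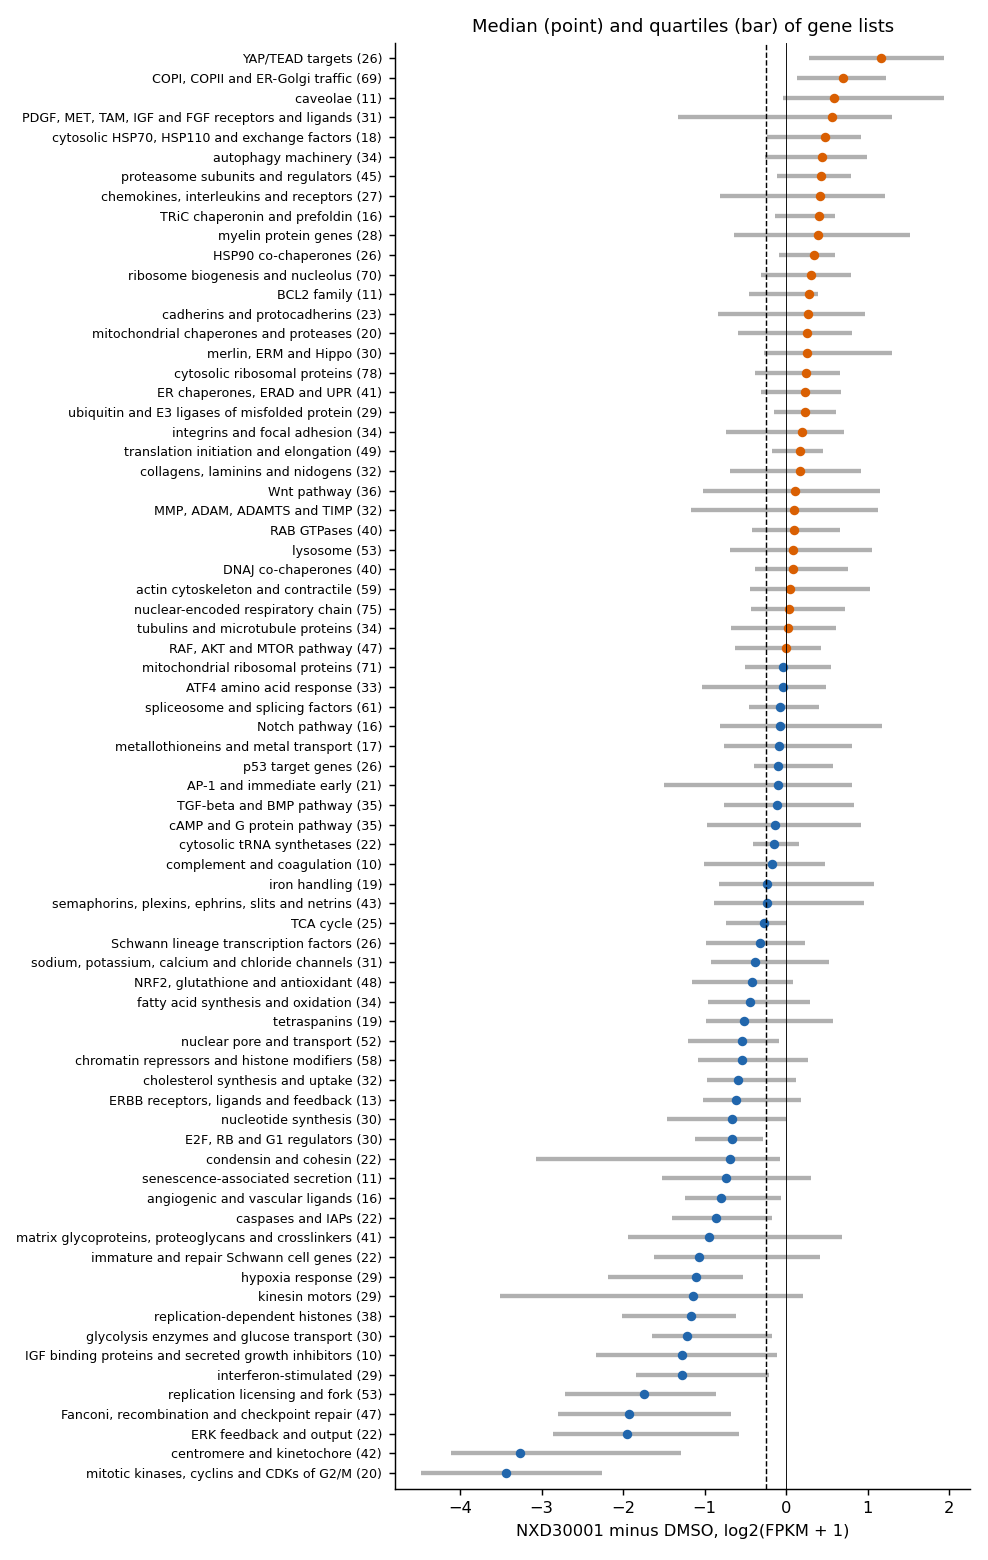
Median difference (point) and the range from the 25th to the 75th percentile (bar) of each list with at least 10 compared members, with the number compared in parentheses; the x axis is the difference in log2(FPKM + 1) and the dashed line the median of all compared genes, -0.25. The lists of G2 and mitosis regulators and of the kinetochore have the lowest medians, -3.44 and -3.26, followed by ERK feedback and output at -1.96, and the YAP/TEAD target list has the highest, 1.16; points above 0 are orange and those below 0 blue.

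Some of the most abundant genes also shifted. Vim, the intermediate filament vimentin of immature and migrating cells, was at 5129.8 against 2121 FPKM, and Gapdh, a glycolytic enzyme, at 2283 against 747 FPKM. Sparc, a secreted matrix-binding protein, was at 3339.6 against 5622 FPKM, which made it higher than Vim in the treated library and lower than Vim in the control. Ranks were taken among rows with a gene symbol of their own. Hspa8, Pmp22, Hsp90aa1, Rpl13a, Prpf38b and Ncrna00085 were among the 20 most abundant genes of the treated library and not of the control, and Rps27, Calm2, Anapc13, Gapdh, Ptma, Marcks and Hnrnph1 the reverse. Such a change of place can be small, since Marcks was at 1576 against 1509.8 FPKM. Ywhae, a 14-3-3 protein, and Eef1a1, the translation elongation factor, differed little, at 2848 against 2842 FPKM and 1944 against 1981 FPKM. The loci of Hspa8, Rpl13a, Ncrna00085, Ywhae and Eef1a1 are also those of other rows.

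The lists of G2 and mitosis regulators and of the kinetochore had the lowest medians of all lists with at least 5 compared members, -3.44 and -3.26. The kinetochore is the protein plate on the centromere that binds spindle microtubules. Of its 42 compared genes 34 were at least 2-fold lower and 1 higher by as much, and the authors' deposited table called 28 lower. Hjurp, the chaperone that loads the centromeric histone, was at 77.2 against 0.681 FPKM (ENSMUSG00000044783, chromosome 1 from 90159045 to 90174208, mm9), a difference of -5.54 (implied error 0.74). Other parts of the plate were lower too. The microtubule-binding subunits Ndc80 and Nuf2 were at 92.1 against 3.51 FPKM and 35.3 against 0.827 FPKM. The checkpoint kinase gene Bub1b was at 314 against 16.7 FPKM, and Sgol2, a shugoshin that protects centromeric cohesion, at 60.96 against 1.63 FPKM. Mis12, an outer kinetochore subunit, was level at 26.1 against 26.1 FPKM, and Zwint was the member that was at least 2-fold higher, at 50.4 against 135 FPKM. The kinesin list held members in both directions. The mitotic motors Cenpe, Kif15, Kif18a and Kif23 were lower, with Cenpe at 206 against 11.8 FPKM and Kif15 at 61.02 against 1.11 FPKM (difference -4.88). The named higher members were Kif1b, a motor of vesicle transport, at 194 against 402 FPKM, Kif1a at 15.9 against 36.7 FPKM, Kif13a at 10.7 against 32.3 FPKM and the light chain gene Klc1 at 14.2 against 52.3 FPKM. Over all 29 kinesin genes 16 were at least 2-fold lower and 5 higher by as much, with a median of -1.14. The loci of Ndc80, Kif18a, Kif13a and Klc1 are also those of other rows.

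Condensin and cohesin, the ring complexes that fold and hold chromatids, did not move as a unit. The named condensin genes were lower to different extents, with Smc2 at 327 against 12.6 FPKM, Ncapg2 at 40.5 against 1.08 FPKM and Ncapd2 at 11.5 against 0.591 FPKM. Ncaph, another condensin subunit, was at 885 against 103 FPKM with a difference of -3.10 and was not called in the authors' deposited table, and Smc4 at 795 against 509 FPKM. The cohesin core genes Smc3 and Stag2 were level, at 288 against 287 FPKM and 121 against 119.7 FPKM, and Rad21 was at 200.2 against 131 FPKM. Of 22 members 10 were at least 2-fold lower, none was higher by as much and the median was -0.68. The loci of Smc2, Ncapd2 and Smc4 are also those of other rows.

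Of 20 kinases, cyclins and regulators of G2 and mitosis 18 were at least 2-fold lower. Mastl, the Greatwall kinase, was at 75.7 against 1.02 FPKM, and Cdc2a, today named Cdk1, at 48.3 against 15.02 FPKM. Lin52 and Lin54, subunits of the MuvB core that regulates these genes, were close to level at 2.15 against 2.44 FPKM and 17.5 against 21.6 FPKM, while Lin9 of the same core was at 12.01 against 0.832 FPKM. The promoters of many such genes hold a cell cycle homology region, searched as TTTGAA or TTCGAA on both strands, in a window from 250 bases before to 50 bases after the start. It was found in 57.1% of 14 promoters of that list and in 45.0% of 40 kinetochore promoters, against 19.2% of all 32851 promoters and 14.3% of those of compared genes. Genes at least 2-fold lower had it in 19.3%. The CCAAT box was found in 78.6% of the promoters of the G2 and mitosis list against 37.4% of all. The share was 37.7% for promoters of compared genes and 41.1% for those of genes at least 2-fold lower. It was 69.0% of 42 promoters in the endoplasmic reticulum chaperone list, whose median was 0.23. The 4 promoters below, with the 150 bases before the start, show the motif in capitals within genes that were lower. They are RefSeq sequences of GRCm38.p6, at chr5:123749576-123749725, plus strand, for Kntc1, a kinetochore gene at 33.1 against 1.005 FPKM, at chr8:116921590-116921739, plus strand, for Cenpn, a centromere gene at 14.7 against 0.524 FPKM, at chr17:24251410-24251559, minus strand, for the cyclin gene Ccnf at 2.36 against 0.0235 FPKM, and at chr10:69352913-69353062, minus strand, for Cdc2a. The match nearest to the start begins 8, 9, 14 and 15 bases before it. A match is a description of letters and not a bound site. The loci of Lin52 and Lin54 are also those of other rows.
Kntc1: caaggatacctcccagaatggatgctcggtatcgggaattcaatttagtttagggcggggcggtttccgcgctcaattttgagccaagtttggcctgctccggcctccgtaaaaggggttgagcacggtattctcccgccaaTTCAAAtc
Cenpn: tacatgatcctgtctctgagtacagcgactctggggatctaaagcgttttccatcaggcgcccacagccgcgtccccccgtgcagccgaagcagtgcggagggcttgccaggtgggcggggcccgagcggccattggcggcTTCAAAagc
Ccnf: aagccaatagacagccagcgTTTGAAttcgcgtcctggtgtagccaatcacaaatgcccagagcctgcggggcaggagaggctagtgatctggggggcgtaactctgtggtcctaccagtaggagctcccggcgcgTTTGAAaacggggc
Cdc2a: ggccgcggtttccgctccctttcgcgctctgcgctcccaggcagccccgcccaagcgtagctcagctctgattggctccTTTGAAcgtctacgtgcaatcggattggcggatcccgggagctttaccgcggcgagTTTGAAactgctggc

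Of 53 licensing and fork genes of DNA replication 38 were at least 2-fold lower and none higher by as much (median -1.74). Pold3, a polymerase delta subunit, was at 252 against 3.35 FPKM, Uhrf1, which carries DNA methylation through replication, at 26.9 against 0.309 FPKM and Prim1, the primase, at 88.2 against 5.16 FPKM. The helicase subunit gene Gins2 was at 45.6 against 1.02 FPKM, a difference of -4.53. Orc4l, part of the origin recognition complex, was at 121 against 187 FPKM, the highest difference in the list. The E2F motif, searched as TTTGGC or TTTCGC on both strands, was in 41.8% of 55 promoters of these genes and in 16.4% of all promoters. The share was 17.6% for promoters of compared genes and 17.9% for those of genes at least 2-fold lower. It was 58.8% of 17 promoters in the chaperonin TRiC and prefoldin list, which had no member at least 2-fold lower. Among nucleotide synthesis genes 12 of 30 were at least 2-fold lower, with Dck, deoxycytidine kinase, at 24.5 against 1.19 FPKM and Paics, a purine synthesis enzyme, at 1319 against 616 FPKM. Samhd1, which breaks down deoxynucleotides, was the member that was at least 2-fold higher, at 20.1 against 144 FPKM, a difference of 2.78 (implied error 0.42). Among E2F, RB and G1 regulators the share was smaller, with 11 of 30 at least 2-fold lower. E2f8, an E2F repressor, was at 34.4 against 0.358 FPKM and Cdk6 at 155 against 36.1 FPKM. The CDK inhibitor genes Cdkn1a and Cdkn1b stood at 53.9 against 41.5 FPKM and 44.3 against 56.9 FPKM. The loci of Gins2, Orc4l, Paics, E2f8 and Cdkn1b are also those of other rows.

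The Fanconi, recombination and checkpoint repair genes, which mend breaks and crosslinks at forks, had 31 of 47 members at least 2-fold lower and 2 higher by as much, with a median of -1.93. Brip1, a helicase partner of BRCA1, was at 83.04 against 0.203 FPKM (ENSMUSG00000034329, chromosome 11 from 85871637 to 86014695). Its partner Brca1 was at 55.5 against 1.98 FPKM. Fancd2, the hub of the crosslink response, was at 20.7 against 0.186 FPKM, and Rad50, which holds broken ends, at 100.4 against 9.96 FPKM. Fancc, of the Fanconi core complex, was at 1.73 against 4.58 FPKM and Atrip, the partner of the ATR kinase, at 0.106 against 1.69 FPKM, both higher but from a level near the floor. Histone genes tied to replication were mostly lower, 23 of 38 by at least 2-fold (median -1.16). Hist1h4d was at 447 against 66.8 FPKM and Hist1h1b, a linker histone, at 12.3 against 0.407 FPKM, while Hist1h2bc was at 16.8 against 49.6 FPKM. These genes are near-identical copies and mostly lack poly(A) tails, so their levels depend on how fragments were assigned and on library selection, which no source used here gives. The replacement histone genes H2afz and H3f3b were at 354 against 102 FPKM and 765 against 197 FPKM. The loci of Brip1, Fancd2, Rad50, Fancc, Atrip and Hist1h2bc are also those of other rows.

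Chromatin and nuclear pore lists had medians below that of all genes. Among chromatin repressors and histone modifiers 16 of 58 were at least 2-fold lower and none higher by as much, with a median of -0.54. The lower share, 27.6%, was close to the 24.8% of all compared genes. Tet1, a 5-methylcytosine oxidase, was at 92.9 against 1.86 FPKM, a difference of -5.04 (implied error 0.94). The H3K9 methyltransferase Suv39h2 was at 55.8 against 0.856 FPKM, the remodeller Hells at 89.7 against 5.69 FPKM and the Polycomb methyltransferase Ezh2 at 168 against 38.2 FPKM. Smarca2, an ATPase of the SWI/SNF complex, was at 60.5 against 3.99 FPKM. Hdac2 and Rnf2, a deacetylase and a Polycomb ubiquitin ligase, were at 323 against 528 FPKM and 22.8 against 45.4 FPKM. Of 52 nuclear pore and transport genes 18 were at least 2-fold lower. The lower pore subunits Aaas and Nup43 were at 10.96 against 0.541 FPKM and 61.7 against 8.65 FPKM. The members at least 2-fold higher were Ranbp2, of the cytoplasmic filaments, at 37.4 against 88.2 FPKM, and Sec13, at 11.6 against 55.2 FPKM, which serves both the pore and COPII vesicles. The locus of Suv39h2 is also that of another row.

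Genes of the early secretory pathway leaned higher. COPII coats carry cargo out of the endoplasmic reticulum, COPI coats carry it back and within the Golgi, and the translocon and signal recognition particle bring nascent chains in. Of 69 such genes 56 were higher and 13 lower, 25 were at least 2-fold higher and 3 lower by as much, and the median was 0.70, or 0.95 when centred. The authors' deposited table called 2 higher. Arf4, a small GTPase of the Golgi, was at 218 against 1194 FPKM (ENSMUSG00000021877, chromosome 14 from 27457660 to 27476744), a difference of 2.45 (implied error 0.49). The COPII coat gene Sec13 was at 11.6 against 55.2 FPKM, and the COPI coat genes Copb2 and Copa at 155 against 409.8 FPKM and 233 against 449 FPKM. The vesicle fusion proteins Ykt6 and Bet1l were at 2.78 against 15.99 FPKM and 4.82 against 23.3 FPKM. Srp14, of the signal recognition particle, was at 55.6 against 189 FPKM, while Ssr3, the most abundant translocon-associated gene of the list, was level at 832 against 884 FPKM. The 3 members at least 2-fold lower were the COPII gene Sec23b at 15.5 against 6.59 FPKM, the COPI gene Copg2 at 27.8 against 13.1 FPKM and Arfgap2, which acts on ARF GTPases, at 4.87 against 1.07 FPKM. The loci of Copa, Bet1l and Arfgap2 are also those of other rows.

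The letters ACGTG, the core shared by hypoxia, E-box and unfolded protein response elements, were found on either strand in 60.0% of 65 promoters of the secretory list and in 58.8% of 34 promoters of the hypoxia list, although the first list was mostly higher and the second mostly lower. The share was 19.6% of all promoters, 25.8% of those of compared genes, and 45.2% of those of the endoplasmic reticulum chaperone list. The promoters of Arf4 and Srp14 of the higher list and of Ero1l and Ankrd37 of the lower list are printed for comparison, as the 150 bases before the start in GRCm38.p6 (RefSeq), with each ACGTG or its reverse complement CACGT in capitals. They lie at chr14:26637984-26638133, plus strand, chr2:118479697-118479846, minus strand, chr14:45318573-45318722, minus strand (RefSeq symbol Ero1a), and chr8:45999851-46000000, minus strand. The locus of Ankrd37 is also that of another row.
Arf4: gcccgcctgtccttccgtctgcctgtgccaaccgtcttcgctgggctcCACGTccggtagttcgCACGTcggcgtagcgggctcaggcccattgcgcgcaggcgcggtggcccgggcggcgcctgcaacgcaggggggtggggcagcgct
Srp14: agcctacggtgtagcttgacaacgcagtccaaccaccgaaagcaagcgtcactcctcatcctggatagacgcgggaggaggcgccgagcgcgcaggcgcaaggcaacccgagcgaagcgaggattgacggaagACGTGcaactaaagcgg
Ero1l: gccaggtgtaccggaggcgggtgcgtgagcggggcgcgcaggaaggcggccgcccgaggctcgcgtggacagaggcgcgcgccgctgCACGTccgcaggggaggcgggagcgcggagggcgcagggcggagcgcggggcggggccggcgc
Ankrd37: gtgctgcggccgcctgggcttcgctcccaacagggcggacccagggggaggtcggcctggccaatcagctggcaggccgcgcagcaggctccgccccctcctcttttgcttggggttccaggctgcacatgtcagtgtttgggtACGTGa

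The chaperone lists given here were uneven. The values of the cytosolic HSP70 and HSP110 list and of the small heat shock list are not reported here. The unfolded protein response list had 4 of 41 members at least 2-fold higher and 5 lower by as much, with a median of 0.23. Hspa5, the main chaperone of the endoplasmic reticulum, was at 316 against 1004 FPKM (difference 1.66, implied error 0.40). Syvn1 and Derl1, which export misfolded proteins for degradation, were at 1.88 against 20.8 FPKM and 6.66 against 28.9 FPKM. The oxidase gene Ero1l of the same compartment was at 1363 against 74.1 FPKM (ENSMUSG00000021831, chromosome 14 from 45902878 to 45938237), a difference of -4.18 (implied error 0.49). Edem1, which extracts misfolded glycoproteins, was at 13.8 against 5.22 FPKM and the abundant chaperone gene Canx at 1081 against 947 FPKM. Of 40 DNAJ co-chaperones, which hand clients to HSP70, 6 were at least 2-fold higher and 6 lower by as much. Dnajc8 was at 23.7 against 99.1 FPKM, Dnajb2 at 3.14 against 13.4 FPKM and Dnajc3, of the endoplasmic reticulum, at 27.9 against 74.9 FPKM, against Dnajc9, a histone chaperone, at 131 against 48.9 FPKM and Hscb, of iron-sulfur cluster assembly, at 26.03 against 6.48 FPKM. HSP90 co-chaperones had a median of 0.35 over 26 genes. Nudc and St13 were at 205 against 462 FPKM and 157 against 359.8 FPKM, while Fkbp5, an immunophilin and glucocorticoid receptor target, was at 2.75 against 0.192 FPKM. The chaperonin TRiC, which folds actin and tubulin, had 2 of 16 genes at least 2-fold higher and none lower by as much, with Cct3 at 18.1 against 54.7 FPKM and Cct7 at 39.8 against 96.2 FPKM. The loci of Dnajc8 and Fkbp5 are also those of other rows.

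In mitochondria, the processing peptidase gene Pmpcb was at 49.3 against 182 FPKM and the chaperonin partner Hspe1 at 57.6 against 209 FPKM, while the disaggregase Clpb was at 5.65 against 0.83 FPKM. The Hspe1 promoter is printed because it held the heat shock motif of 3 alternating units. That motif was searched as GAANNTTCNNGAA and its reverse complement TTCNNGAANNTTC, and it was found in 198 of 32851 promoters, in 2 of 17 of the mitochondrial chaperone list, in 2 of 17 of the cytosolic HSP70 and HSP110 list, in 2 of 45 of the DNAJ list, in 2 of 29 of the ubiquitin list and in 5 of 70 of the splicing list. Promoters of genes at least 2-fold higher held it in 0.537%, near the 0.508% of those of compared genes. The sequence is at chr1:55087998-55088147, plus strand, of GRCm38.p6 (RefSeq), with overlapping matches in capitals, the nearer of which begins 84 bases before the start. The loci of Pmpcb and Hspe1 are also those of other rows.
Hspe1: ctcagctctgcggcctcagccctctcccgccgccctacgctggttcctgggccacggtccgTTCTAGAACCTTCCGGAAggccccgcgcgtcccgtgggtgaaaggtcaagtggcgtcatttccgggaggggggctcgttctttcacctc

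Within the lysosome list, 16 of 53 genes were at least 2-fold higher and 6 lower by as much, but the authors' deposited table called none. Subunits of the proton pump differed from each other, with Atp6v1h at 7.73 against 34.8 FPKM and Atp6v0d1 at 17.8 against 60.3 FPKM, while Atp6v1a, the catalytic subunit, was at 369.6 against 334 FPKM. Among hydrolases, the glucosidase gene Gaa was at 5.97 against 30.1 FPKM and the glucuronidase gene Gusb at 15.3 against 3.45 FPKM. The protease gene Ctsl was at 349.7 against 724 FPKM. Proteasome genes had a median of 0.43 (8 of 45 at least 2-fold higher, 4 lower by as much), with 32 higher and 13 lower at all. The only member the authors' deposited table called was Psmb4, which was higher at 112 against 494 FPKM. Those at least 2-fold lower included the inducible subunit Psmb9, at 1.7 FPKM with DMSO but listed at 0 after NXD30001. The others were the assembly factors Psmg1 and Psmg2 at 20.2 against 8.39 FPKM and 20.01 against 7.85 FPKM, and the inhibitor Psmf1 at 10.4 against 4.27 FPKM. RAB GTPases, which mark membrane compartments, had a median of 0.10. Rab4a, of early endosomes, was at 2.84 against 18.7 FPKM and Rab38 at 4.92 against 27.8 FPKM, against Rab39b at 4.52 against 0.769 FPKM. The loci of Rab38 and Rab39b are also those of other rows.

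Glycolysis genes were lower as a list, while the list of the respiratory chain had a median near 0. Of 30 glycolysis and glucose transport genes 16 were at least 2-fold lower and 1 higher by as much (median -1.22). The glucose transporter Slc2a3 was at 23.2 against 0.897 FPKM, Gpi1, an early enzyme of the pathway, at 198 against 38.98 FPKM and Pfkp, a phosphofructokinase, at 52.9 against 11.1 FPKM. Pdk1, a kinase that inhibits pyruvate dehydrogenase, was at 109 against 9.17 FPKM. Its paralogue Pdk2, the member at least 2-fold higher, was at 3.24 against 10.00 FPKM. In the hypoxia response list 17 of 29 were at least 2-fold lower but none higher by as much (median -1.11). Ankrd37, a small gene bound by the hypoxia factor HIF1, was at 49.5 against 2.06 FPKM and Bhlhe40, a repressor that responds to it, at 53.3 against 1.53 FPKM. Hif1a itself was at 77.7 against 51.2 FPKM. Nuclear-encoded respiratory chain genes had a median of 0.04, with 10 of 75 at least 2-fold higher and 9 lower by as much. Cox7a2l, an assembly factor of respiratory supercomplexes, was at 103 against 364 FPKM and Cox7b at 6706 against 1679.7 FPKM. The tricarboxylic acid cycle list had a median of -0.28, close to that of all genes, with Me2, malic enzyme, at 117 against 25.1 FPKM. The loci of Pfkp, Pdk2, Ankrd37, Bhlhe40 and Hif1a are also those of other rows.

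The iron list held large differences in both directions. Tfrc, the transferrin receptor of iron uptake (ENSMUSG00000022797, chromosome 16 from 32609005 to 32632880), was at 92.4 against 15.7 FPKM, a difference of -2.49 (implied error 0.54), and Trf, transferrin itself, at 109 against 7.63 FPKM. The ferritin light chain gene Ftl1, of iron storage, was at 48.1 against 232 FPKM and its near copy Ftl2 at 55.3 against 193 FPKM, between which fragments cannot be told apart with certainty. The heavy chain gene Fth1 was at 316 against 397 FPKM. The metalloreductases divided, with Steap1 at 0.643 against 22.2 FPKM and Steap2 at 20.8 against 120.2 FPKM, and Steap3 at 1.39 against 0.0269 FPKM. Ireb2 and Aco1, whose proteins bind iron-responsive elements in ferritin and transferrin receptor mRNA, were at 37.1 against 46.5 FPKM and 9.17 against 5.07 FPKM. Over all 19 members 6 were at least 2-fold higher and 4 lower by as much, and the median of -0.24 was close to that of all genes. The metallothionein genes Mt1 and Mt2, which bind zinc and copper, were at 101 against 37.5 FPKM and 422 against 152 FPKM, and the zinc importers Slc39a6 and Slc39a13 at 56.7 against 129.8 FPKM and 11.9 against 43.7 FPKM. The loci of Trf, Ftl1, Ftl2 and Slc39a13 are also those of other rows.

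**Figure D3:**
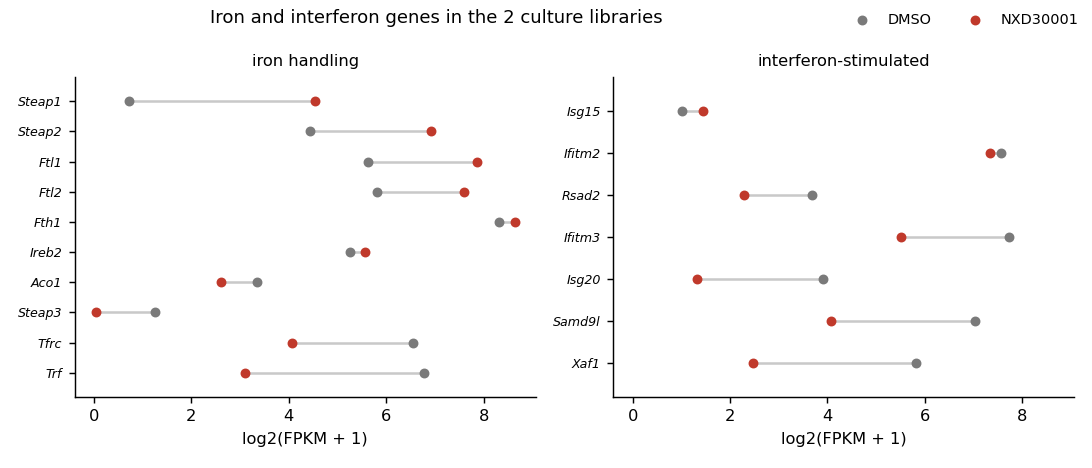
Level of the named genes of the iron handling list (left) and the interferon-stimulated list (right) in the DMSO (grey) and NXD30001 (red) libraries, as log2(FPKM + 1) on the x axis, ordered by difference. Trf, Tfrc and Steap3 have red points left of grey ones and Steap1, Steap2, Ftl1 and Ftl2 right of them, and on the right panel Xaf1, Samd9l, Isg20, Ifitm3 and Rsad2 have red points left of grey ones.

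Of 48 glutathione and antioxidant genes 13 were at least 2-fold lower and 7 higher by as much (median -0.42). Gsta4, a glutathione transferase, was at 81.8 against 0.101 FPKM and was the only member the authors' deposited table called. Gpx4, which removes lipid peroxides, was at 37.3 against 8.98 FPKM and Sod1, the most abundant member, at 818 against 745 FPKM. Other members were higher. Hmox1, haem oxygenase, was at 5.998 against 15.9 FPKM, the peroxiredoxin Prdx6 at 106 against 268 FPKM and Gpx1 at 60.1 against 144 FPKM. The cholesterol list had 7 of 32 genes at least 2-fold lower and 3 higher by as much (median -0.59). Lss and Dhcr7, of cholesterol synthesis, were at 51.2 against 9.33 FPKM and 18.3 against 4.45 FPKM. The fatty acid list had 8 of 34 genes at least 2-fold lower and 1 higher by as much (median -0.44). The lower shares of the antioxidant, cholesterol and fatty acid lists were 27.1%, 21.9% and 23.5%. They were close to the 24.8% of all compared genes. The elongase Elovl5 was at 117 against 37.3 FPKM and the desaturase Scd2, abundant in Schwann cells, at 748 against 362 FPKM, while Fads2, another desaturase, was at 29.2 against 82.6 FPKM. The locus of Lss is also that of another row.

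Ribosome biogenesis genes had 15 of 70 members at least 2-fold higher and 6 lower by as much (median 0.30). Gar1 was at 131 against 447 FPKM and Rrp15 at 8.65 against 36.3 FPKM, against Wdr12 at 32.2 against 9.1 FPKM and Dkc1, a pseudouridine synthase in the same complex as Gar1, at 215 against 91.2 FPKM. Cytosolic ribosomal protein genes had a median of 0.24. Rpl13a was at 99.4 against 1722 FPKM and Rpl18 at 23.4 against 116 FPKM, and Rps27 at 2957 against 799 FPKM. Rps29 was at 5.03 FPKM with DMSO but listed at 0 after NXD30001. Since a ribosomal protein gene can be listed at 0, a 0 in these libraries does not show absence. These genes have many processed copies in the genome, and their levels are uncertain for that reason. Eif6, which keeps large ribosomal subunits apart, was at 35.9 against 154 FPKM. Subunits of the exchange factor eIF2B differed, with Eif2b2 at 6.66 against 23.8 FPKM and Eif2b3 at 12.8 against 3.97 FPKM. Of the ATF4 amino acid response list, 9 of 33 genes were at least 2-fold lower and 2 higher by as much, with Cth, of cysteine synthesis, at 1.41 against 5.65 FPKM, Psat1, of serine synthesis, at 725 against 614 FPKM and Ddit4, an inhibitor of mTORC1, at 76.3 against 5.13 FPKM. In the splicing list Hnrnph1 was at 1562 against 569.9 FPKM and Snrpa1 at 24.01 against 76.4 FPKM, with a median of -0.07. The loci of Wdr12, Dkc1, Rpl13a, Rpl18, Eif6 and Eif2b3 are also those of other rows.

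Growth factor genes differed in direction within families. Among 13 genes of the ERBB family, through which neuregulin acts on Schwann cells, Erbb3 was at 18.1 against 7.17 FPKM and its partner Erbb2 at 3.43 against 5.76 FPKM. The ligand Tgfa was at 0.272 against 7.62 FPKM, a difference of 2.76, and the ligand Btc at 7.86 against 1.25 FPKM. Rnf41, a ligase that degrades ERBB3, was at 1.82 against 5.72 FPKM and Errfi1, a feedback inhibitor, at 10.5 against 3.11 FPKM. Within the larger set of growth factor receptors and ligands, 10 of 31 were at least 2-fold higher and 11 lower by as much, with the authors' deposited table calling 5 higher and 4 lower. Pdgfa (ENSMUSG00000025856, chromosome 5 from 139451967 to 139476530) was at 119.9 against 14.03 FPKM and Pdgfc (ENSMUSG00000028019, chromosome 3 from 80840337 to 81017962) at 0.469 against 17.9 FPKM, differences of -3.01 and 3.69 with implied errors of 0.55 and 0.78. These ligand genes thus lay in opposite directions. The receptor genes Pdgfra and Pdgfrb were at 2.46 against 0.487 FPKM and 1.98 against 7.73 FPKM. Both were low with DMSO, and the authors' deposited table called neither. Fibroblast growth factors Fgf2 and Fgf7 were at 3.31 against 0.0974 FPKM and 9.2 against 1.31 FPKM, and Fgfr3 was listed at 0 with DMSO but at 2.74 FPKM with NXD30001. Of the TAM receptors, which clear dying cells and myelin, Mertk was at 44.6 against 5.79 FPKM and Axl at 129 against 40.8 FPKM, and their ligand Pros1 at 70.4 against 22.5 FPKM. All 3 were lower. Kitl, the ligand of KIT, was higher at 49.5 against 164 FPKM. The loci of Erbb2, Rnf41, Errfi1, Pdgfa, Pdgfc, Fgf2, Fgf7, Mertk and Pros1 are also those of other rows.

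**Figure D4:**
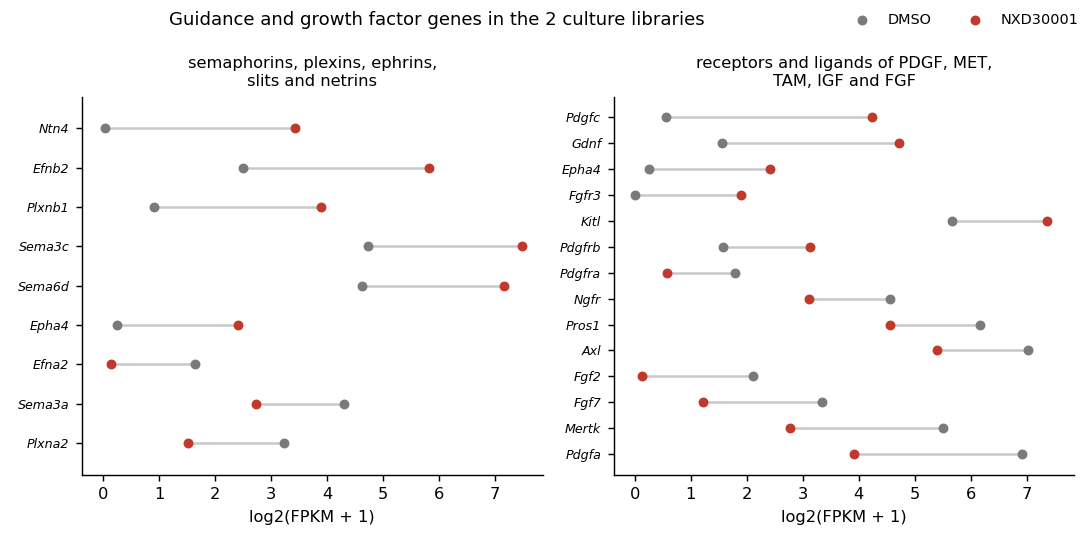
Level of the named genes of the guidance list (left) and the growth factor list (right) in the DMSO (grey) and NXD30001 (red) libraries, as log2(FPKM + 1) on the x axis, ordered by difference. On the left, Ntn4, Efnb2, Plxnb1 and Sema3c have the largest shifts to the right, and on the right Pdgfc and Gdnf do while Pdgfa and Mertk shift to the left.

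The list of RAF, AKT and MTOR pathway genes had a median of 0.00 over 47 members. Nf1, the RAS inhibitor lost in neurofibromatosis type 1, was at 121 against 44.2 FPKM and the kinase gene Rps6ka1 at 16.3 against 2.25 FPKM. Sgk1, a kinase related to AKT, was at 2.99 against 16.5 FPKM and Hras1 at 3.7 against 15.3 FPKM, while Nras was level at 223 against 217 FPKM. Among ERK feedback and output genes 16 of 22 were at least 2-fold lower. Dusp6, the cytosolic ERK phosphatase, was at 10.7 against 0.568 FPKM and Spred3 at 21.2 against 0.983 FPKM, but Dusp1, a stress-responsive phosphatase, was at 7.02 against 31.8 FPKM. Immediate early genes also differed among themselves. Egr1 and Fosl1 were at 3.29 against 0.0929 FPKM and 12.2 against 1.73 FPKM, both lower, and Nr4a3, Mafk and Atf3, all higher, at 0.106 against 6.1 FPKM, 2.64 against 24.97 FPKM and 2.8 against 20.98 FPKM. The loci of Nf1, Rps6ka1, Dusp6 and Mafk are also those of other rows.

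Genes of the Hippo pathway, which merlin activates, included no member at least 2-fold lower and 11 of 30 at least 2-fold higher. Tead4, a DNA-binding partner of YAP, was at 3.05 against 23.97 FPKM and Tead3 at 3.57 against 14.8 FPKM, while Tead1, the most abundant of the family, was at 173 against 157 FPKM. The kinase gene Lats2 was at 34.2 against 79.8 FPKM, and Yap1 and Wwtr1, the coactivators, were level at 38.1 against 36.2 FPKM and 138 against 123 FPKM. Nf2, the floxed gene, was at 15.9 against 12.5 FPKM, a whole-gene level that does not show the deletion. The YAP/TEAD target list had a median of 1.16, with 14 of 26 at least 2-fold higher and 4 lower by as much. Tgfb2 was at 0.17 against 8.05 FPKM and Thbs1, a matrix protein, at 8.32 against 45.3 FPKM, against Birc5, also a kinetochore gene, at 66.96 against 3.15 FPKM and Myof at 61.1 against 17.9 FPKM. The letters GGAATG, a TEAD motif, were found on either strand in 40.9% of 22 target promoters and 40.6% of 32 Hippo promoters, against 14.7% of all and 12.3% of those of compared genes. Genes at least 2-fold higher had them in 15.5% of promoters. Other lists also had a high share, with 35.3% of 17 TRiC and prefoldin promoters and 33.3% of 12 ERBB promoters. The loci of Tead1, Lats2, Yap1, Wwtr1 and Tgfb2 are also those of other rows.

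Developmental pathways were mixed. In the Wnt list 10 of 36 genes were at least 2-fold higher and 10 lower by as much. Axin2 and Nkd2, feedback targets of β-catenin, were at 7.01 against 0.183 FPKM and 28.1 against 5.61 FPKM, and the nuclear factor Tcf7 at 10.4 against 1.94 FPKM. All 3 were lower, while other family members of Tcf7 were higher. Tcf7l1 and Tcf7l2 were at 4.24 against 157 FPKM and 20.6 against 76.01 FPKM. Among ligands, Wnt5a was at 14.2 against 2.46 FPKM and Wnt6 at 0.114 against 5.07 FPKM. In the Notch list (7 of 16 at least 2-fold higher, 3 lower by as much) the ligand Jag1 (ENSMUSG00000027276, chromosome 2 from 136907191 to 136942380) was at 1.42 against 24.1 FPKM, a difference of 3.37 (implied error 0.76), while the receptor Notch1 was at 19.1 against 4.46 FPKM and the target Hes1 at 2.36 against 0.66 FPKM. In the TGF-beta and BMP list Tgfbi, a matrix target, was at 68.3 against 13.1 FPKM and the corepressor Tgif1 at 49.2 against 11.8 FPKM, while Ski, another corepressor, was at 7.62 against 23.6 FPKM. Bmp4 was listed at 0 with DMSO but at 2.98 FPKM with NXD30001. Forskolin in the medium raises cyclic AMP in both cultures. In the cyclic AMP list Creb5 was at 15.5 against 0.352 FPKM, Creb1 at 484 against 169 FPKM and the phosphodiesterase Pde7a at 36.1 against 11.3 FPKM, while the cyclase Adcy1 was at 2.07 against 20.5 FPKM and Pde4b at 37.4 against 90.2 FPKM. The loci of Axin2, Nkd2, Tcf7, Tcf7l1, Notch1, Bmp4, Creb5 and Pde7a are also those of other rows.

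Myelin genes and immature Schwann cell genes leaned apart. Among 28 myelin genes 11 were at least 2-fold higher and 6 lower by as much, and the authors' deposited table called 8 higher and 1 lower. Mbp, which compacts the cytoplasmic side, was at 12.1 against 88.1 FPKM. Drp2, the partner of periaxin in the outer membrane patches, was at 0.883 against 23.04 FPKM, and Cldn19, of the tight junctions of the myelin sheath, at 0.888 against 16.6 FPKM. Fa2h, which hydroxylates myelin lipids, was at 0.279 against 10.6 FPKM. Other myelin genes were lower. Gjc3, a connexin gene of myelinating glia (ENSMUSG00000056966, chromosome 5 from 138394688 to 138404326), was at 91.3 against 4.002 FPKM, a difference of -4.21. Cnp was at 54.1 against 24.1 FPKM and the secreted factor Dhh at 20.6 against 8.68 FPKM. The loci of Mbp, Cldn19 and Cnp are also those of other rows.

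Among 22 genes of immature and repair Schwann cells 11 were at least 2-fold lower and 4 higher by as much (median -1.07). The adhesion genes L1cam, Ncam1 and Cdh19 were at 51.1 against 9.83 FPKM, 71.1 against 21.4 FPKM and 10.6 against 1.04 FPKM, and the neurotrophin receptor Ngfr at 22.5 against 7.68 FPKM. The lower member Mki67 marks dividing cells of any type. The members at least 2-fold higher included neurotrophic factors, which keep neurons alive. Bdnf (ENSMUSG00000048482, chromosome 2 from 109514856 to 109567204) was at 0.96 against 30.7 FPKM, a difference of 4.02 (implied error 0.46). Gdnf was at 1.95 against 25.4 FPKM and Cntf at 1.87 against 14.9 FPKM, each from under 2 FPKM with DMSO. Among transcription factors of the lineage 2 of 26 were at least 2-fold higher and 6 lower by as much. Egr2, which switches on myelin genes, was at 12.2 against 0.924 FPKM and Pou3f1, which precedes it, at 1.86 against 0.433 FPKM, although the myelin gene Prx was higher at 1.68 against 28.6 FPKM, a difference of 3.47 (implied error 0.70). Pax3, of early Schwann cells, was at 7.73 against 39.9 FPKM and Id4 at 3.35 against 16.3 FPKM. Jun, the repair regulator, and Sox2, which holds cells immature, were at 15.3 against 13.7 FPKM and 20.1 against 27.1 FPKM, and Zeb2, the most abundant of the list, at 531 against 419 FPKM. The loci of L1cam, Ncam1, Cntf, Prx, Id4, Jun and Zeb2 are also those of other rows.

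**Figure D5:**
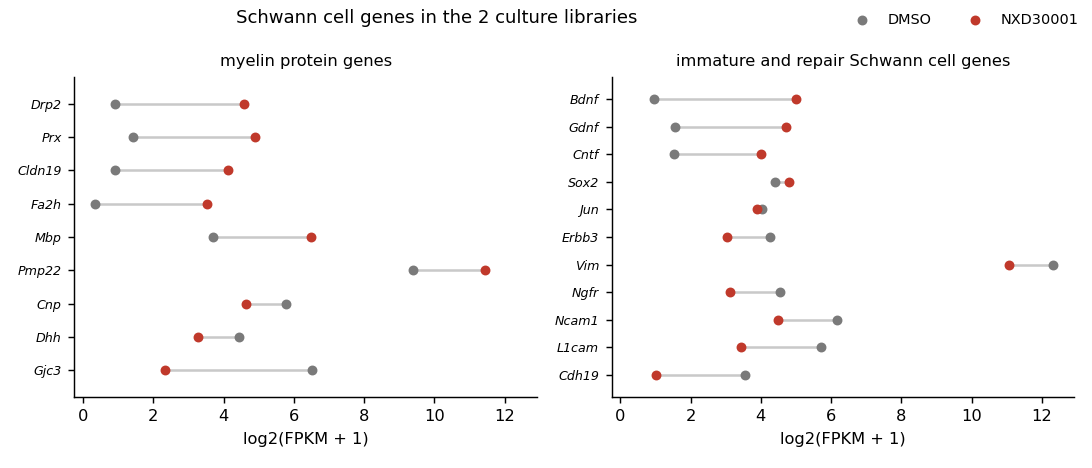
Level of the named genes of the myelin list (left) and the immature and repair Schwann cell list (right) in the DMSO (grey) and NXD30001 (red) libraries, as log2(FPKM + 1) on the x axis, ordered by difference. Drp2, Prx, Cldn19, Fa2h, Mbp and Pmp22 have red points right of grey ones and Gjc3, Dhh and Cnp left of them, and on the right panel Bdnf, Gdnf and Cntf shift to the right while Cdh19, L1cam, Ncam1 and Ngfr shift to the left.

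Axon guidance cues and their receptors included large differences in both directions: 11 of 43 were at least 2-fold higher and 9 lower by as much. The secreted semaphorin Sema3c was at 25.6 against 177 FPKM and the transmembrane Sema6d at 23.6 against 142 FPKM, whereas Sema3a was at 18.7 against 5.63 FPKM. Efnb2, a ligand of EPHB receptors that guides Schwann cells, was at 4.69 against 55.7 FPKM (ENSMUSG00000001300, chromosome 8 from 8617433 to 8661239), a difference of 3.32 (implied error 0.76). Epha4, an ephrin receptor, was at 0.193 against 4.31 FPKM and the ephrin gene Efna2 at 2.12 against 0.106 FPKM. Among plexins, the semaphorin receptors, Plxnb1 was at 0.887 against 13.9 FPKM and Plxna2 at 8.38 against 1.85 FPKM. Ntn4, a netrin of basement membranes, was at 0.0201 against 9.74 FPKM. The loci of Sema6d, Plxnb1 and Ntn4 are also those of other rows.

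Matrix genes were divided, with more lower than higher among glycoproteins. Of 41 matrix glycoproteins, proteoglycans and crosslinking enzymes 19 were at least 2-fold lower and 7 higher by as much (median -0.94), but the authors' deposited table called 6 lower and 7 higher. Fibronectin, Fn1, was at 12.6 against 0.437 FPKM, Postn, periostin, at 27.8 against 0.941 FPKM, Sparcl1, a relative of Sparc, at 123 against 9.47 FPKM and the hyaluronan receptor Cd44 at 59.1 against 6.23 FPKM. The higher members included Fbn1, fibrillin-1, at 0.356 against 33.1 FPKM, Npnt, nephronectin, at 1.04 against 47.97 FPKM and the heparan sulfate proteoglycan Gpc4 at 9.62 against 84.5 FPKM. Of 32 collagen, laminin and nidogen genes 8 were at least 2-fold higher and 7 lower by as much. The fibrillar genes Col1a1 and Col3a1 were at 346 against 711 FPKM and 653 against 187 FPKM, and Col11a1 and Col14a1 at 28.8 against 117 FPKM and 4.59 against 34.3 FPKM. Agrn, agrin, was at 16.6 against 2.47 FPKM. Nid1, which links laminin and collagen in the basal lamina, was at 837 against 512 FPKM. Among proteases, Adamts5, which cleaves proteoglycans, was at 49.7 against 284 FPKM and Mmp16 at 5.6 against 44.5 FPKM, against Mmp17 at 10.1 against 0.368 FPKM and Mmp11 at 25.9 against 4.55 FPKM. The loci of Fn1, Sparcl1, Cd44, Fbn1, Npnt, Col14a1 and Mmp16 are also those of other rows.

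The integrin gene Itga8 was at 97.4 against 4.13 FPKM (ENSMUSG00000026768, chromosome 2 from 12028258 to 12232927), a difference of -4.26, although its ligand gene Npnt was higher. Itga2 and Itgb3 were also lower, at 4.66 against 0.0161 FPKM and 7.9 against 0.628 FPKM, while the laminin receptor Itga6 and the common partner Itgb1 were at 194 against 229 FPKM and 305 against 213 FPKM. Of focal adhesion genes, the scaffold Nedd9 was at 4.05 against 21.1 FPKM and the LIM proteins Zyx and Trip6 at 5.64 against 23.1 FPKM and 4.03 against 13.3 FPKM. In the actin list 15 of 59 genes were at least 2-fold higher and 5 lower by as much, with a median of 0.05. Markers of smooth muscle and pericytes were at a low level. Of 9 such genes 3 were compared, all 3 were higher, 2 of them by at least 2-fold, and the whole list summed to 1.92 against 5.72 FPKM. Its defining genes Acta2 and Myh11 were at most 0.271 FPKM in either library and Rgs5 was at 0 in both. Their part in the actin values was not tested. Cald1, caldesmon, was at 302 against 1414 FPKM (difference 2.22, implied error 0.38), Cdc42ep3 at 2.6 against 40.7 FPKM and Tpm2 at 0.24 against 3.79 FPKM. Myh10, non-muscle myosin IIB, was at 98.7 against 3.84 FPKM, a difference of -4.36. Diap3 and Diap1, which nucleate straight filaments, were at 23.2 against 2.64 FPKM and 8.23 against 1.22 FPKM. The caveola genes Ptrf, Sdpr and Ehd2 were higher, at 40.2 against 245 FPKM, 2.32 against 90.99 FPKM and 35.4 against 169 FPKM, although Cav1 and Cav2, the caveolins, were level at 67.95 against 78.9 FPKM and 173 against 167 FPKM. The loci of Itga8, Npnt, Itga6, Itgb1, Trip6, Cald1, Cav1 and Cav2 are also those of other rows.

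Tubulin genes had a median of 0.02. Stmn1, which frees tubulin from microtubules and is high in dividing cells, was at 201 against 9.47 FPKM, and Tubb2b at 190.5 against 83.1 FPKM, while Tuba1a and Tuba1b were at 385 against 1159 FPKM and 209 against 832 FPKM. Among cadherins, Ctnnd2, a catenin of neural cells, was at 3.48 against 69.5 FPKM and Pcdh9 at 4.06 against 32.3 FPKM, and Cdh6 was at 25.4 against 6.67 FPKM. Tetraspanins, which organise membrane domains, included Tspan7 at 3.33 against 168 FPKM and Cd81 at 224 against 562 FPKM, against Tspan2 at 9.16 against 0.816 FPKM and Tspan13 at 5.04 against 0.118 FPKM. Of 31 ion channel genes 5 were at least 2-fold higher and 7 lower by as much. The sodium channel gene Scn7a, known from non-myelinating Schwann cells, was at 1.72 against 13.2 FPKM and the potassium channel gene Kcnd3 at 0.137 against 4.47 FPKM, while Kcnk2 was at 8.4 against 0.375 FPKM. The loci of Tubb2b, Ctnnd2, Pcdh9, Tspan7, Cd81, Tspan2 and Kcnd3 are also those of other rows.

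Interferon-stimulated genes were mostly lower, and no added interferon is named in the labels. Of 29 compared genes 17 were at least 2-fold lower and none higher by as much, with a median of -1.28, or -1.03 when centred, and the authors' deposited table called 7 lower. Xaf1, a proapoptotic interferon target (ENSMUSG00000040483, chromosome 11 from 72115130 to 72127235), was at 55.1 against 4.58 FPKM, a difference of -3.33 (implied error 0.56). Samd9l was at 129 against 15.9 FPKM and Ifitm3, which blocks viral entry, at 212 against 44.6 FPKM. Ifitm2, its neighbour in function, was close to level at 187 against 161 FPKM. The antiviral enzyme gene Rsad2 was at 11.9 against 3.87 FPKM and Isg20, an RNA exonuclease, at 14.02 against 1.5 FPKM. Isg15 was low in both, at 1.03 against 1.72 FPKM. Pairs of GAAA units of interferon response elements, searched as GAAANNGAAA on both strands, were in 12 of 31 promoters of the list (38.7%), against 3.44% of all promoters and 2.94% of those of genes at least 2-fold lower. The 150 bases before the start of Rsad2 (chr12:26456453-26456602, minus strand, GRCm38.p6, RefSeq) are printed with the match in capitals on the opposite strand, beginning 120 bases before the start.
Rsad2: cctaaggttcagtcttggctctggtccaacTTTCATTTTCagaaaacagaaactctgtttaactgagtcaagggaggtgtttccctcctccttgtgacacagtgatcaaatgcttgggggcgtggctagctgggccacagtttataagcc

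Other immune and secreted genes were less uniform. The class I gene H2-K1 was at 166 against 89.6 FPKM and the chemokines Cxcl10 and Ccl2 at 7.77 against 1.36 FPKM and 18.9 against 4.71 FPKM. Il18, a cytokine, was at 9.04 against 53.7 FPKM and Lifr, a receptor for cytokines of the LIF family, at 8.92 against 28.1 FPKM. Tslp was listed at 0 with DMSO but at 8.07 FPKM with NXD30001. Nfkb1, a subunit of the factor that drives many such genes, was at 31.5 against 74.3 FPKM. Of insulin-like growth factor binding proteins and secreted growth inhibitors 6 of 10 were at least 2-fold lower, with Igfbp5 at 331 against 71.1 FPKM and Igfbp7 at 17.1 against 0.336 FPKM, while Igfbp3 was level at 36.9 against 39.6 FPKM. Stc1, a secreted glycoprotein, was at 58.7 FPKM with DMSO but listed at 0 after NXD30001. Wisp1, a matricellular growth factor, was at 13.4 against 73.2 FPKM. Ece1, the endothelin-converting enzyme, was at 7.58 against 464 FPKM (implied error 1.42). This was the largest difference among higher genes with a symbol of their own that the authors' deposited table called. The loci of Cxcl10, Tslp, Igfbp7 and Ece1 are also those of other rows.

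Of 22 caspase and inhibitor genes 8 were at least 2-fold lower and none higher by as much, with a median of -0.86. The inflammatory caspases Casp4 and Casp1 were at 25.6 against 2.42 FPKM and 6.74 against 0.479 FPKM. In the BCL2 family the proapoptotic genes Bcl2l11 and Bax were at 24.8 against 3.47 FPKM and 5.59 against 18.4 FPKM, and the survival genes Mcl1 and Bcl2 at 144 against 179.6 FPKM and 18.2 against 22.3 FPKM. Of 26 p53 target genes 5 were at least 2-fold higher and 3 lower by as much. Gadd45a, a stress gene of growth arrest, was at 5.73 against 72.2 FPKM, while Mdm2 and Ccng1 were at 52.5 against 49.5 FPKM and 61.3 against 46.2 FPKM. The loci of Bcl2 and Gadd45a are also those of other rows.

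Among genes called in the authors' deposited table and at 30 FPKM or more in both libraries, 43 with a symbol of their own were higher and 42 lower. The higher ones with the largest differences included Limch1, an actin-binding protein, at 37.2 against 429 FPKM, Cpe, the carboxypeptidase that processes neuropeptides, at 47.00 against 516 FPKM, and F2r, the thrombin receptor, at 43.7 against 269.6 FPKM. The protein kinase C genes Prkcq and Prkci were at 38.6 against 202 FPKM and 89.7 against 441 FPKM, and the deubiquitinase Otud1 at 71.8 against 469.9 FPKM. Lower ones included the adhesion receptor Lphn3 at 620.0 against 62.8 FPKM, the teneurin Odz3 at 753 against 146 FPKM, the endosomal adaptor Appl2 at 711 against 102 FPKM, the connexin Gjc1 at 206 against 31.7 FPKM and Ogt, the O-GlcNAc transferase, at 175 against 48.5 FPKM. Appl2 had a difference of -2.79 (implied error 0.52) and Cpe one of 3.43 with 0.73. The loci of Limch1 and Lphn3 are also those of other rows.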

How the data were processed

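RNA of 2 cultures was extracted with Trizol and a RiboPure kit, and libraries followed Illumina's protocol, per the labels' protocols. Reads were processed by the authors with CASAVA, TopHat 1.2.0, Cufflinks 1.0.2 and Cuffdiff on mm9, per the submitters' processing notes. Not given in the sources used here are strand and library selection. The deposited table holds FPKM levels, and per the file headers also the authors' fold (a ratio), its natural log, a test statistic (a score), p-values and q-values. The q-values reach 2.05 and were used only through the authors' deposited calls, at a limit of 0.05. Rows of status LOWDATA, 61, and FAIL, 705, were left out. The depth is unknown from FPKM.

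Differences of log2(FPKM + 1) were computed in Python 3.11.15 (pandas 2.3.3, numpy 2.4.6), with figures in matplotlib 3.10.9. The calculation was run on simulated data built with the same formula and without noise. Recovery was thus fixed in advance, and the run checks only the arithmetic and the row filter. The implied error is the deposited natural-log fold divided by its statistic, converted to log2. The members and the 88 gene lists were chosen with earlier results of these data known, and 78 lists had 5 or more compared members. Named genes were the 25 higher and 25 lower with the largest differences among the authors' called genes, the same at 30 FPKM or more in both libraries, up to 4 members per direction and the 2 most abundant of each list, all members of lists of at most 30 symbols, and the 20 most abundant genes of each library. Exceptions are named in the text. Rows with a blank, repeated, clone, predicted or small RNA symbol were left out of the rankings of called and of most abundant genes. Promoters came from RefSeq tables of GRCm38.p6, in which 8374 compared genes were matched by gene ID, symbol or synonym. Their coordinates belong to that build and gene loci to mm9, the build of the deposited table. Alternatives changed the pseudocount, the minimum level, the centring and the rows kept. No test was possible with 1 library per group. Some genes that the naming rule selects are not reported here.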

Additional observations from a re-analysis of the deposited data

How the results depend on the processing

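No paired analysis was possible because each group has 1 library. The count of genes at least 2-fold higher was 908 with a pseudocount of 5 FPKM and 954 without rows at shared loci, against 1603, and that of lower genes 1694 and 1865, against 3149. Under the other 6 alternatives it was 1220 to 2256 and 2331 to 3788. More genes were lower than higher under all 8 alternatives. The median of all genes was 0 with no minimum level and 0, by construction, when centred. Lists with a median of -1 or less numbered 13, and 6 with a pseudocount of 5 FPKM, 7 with no minimum, 8 when centred, 17 with a pseudocount of 0.1 FPKM, 14 without rows at shared loci and 12 to 13 under the other 3. The named genes that differed by at least 2-fold kept their sign in every setting that gave a value, but this was fixed in advance. A pseudocount cannot change the sign of a difference, centring shifted all differences by less than 2-fold, and the other settings only changed which rows were kept.

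Centring, which adds the same amount to every gene, turned 13 list medians positive, all of which lay between -0.25 and 0: 0.15 for p53 targets, 0.21 for the ATF4 response, 0.10 for tRNA synthetases, 0.010 for iron handling, 0.16 for metallothioneins and metal transport, 0.21 for mitochondrial ribosomal proteins, 0.18 for splicing, 0.15 for AP-1, 0.13 for TGF-beta and BMP, 0.17 for Notch, 0.11 for cyclic AMP, 0.0084 for guidance and 0.072 for complement. Without rows at shared loci, which leaves fewer genes, medians changed sign to -0.027 for the BCL2 family, -0.093 for DNAJ, -0.59 for mitochondrial chaperones, -0.068 for Wnt, 0.60 for Notch, 0.090 for cyclic AMP, -0.40 for cadherins, 0.019 for channels and 0.33 for complement. With a minimum of 5 FPKM they changed to -0.014 for BCL2, 0.057 for AP-1, -0.032 for actin and -0.086 for tubulins, and with LOWDATA rows to -0.0066 for RAF, AKT and MTOR. Beyond centring and the smaller number of genes, the cause of these changes was not tested.

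With 1 library per group the spread between cultures is unknown. FPKM values do not give the depth behind a level. The median implied error was 0.80, and 1.06 over 1927 genes whose higher level was from 1 to 3 FPKM. Whether rows at shared loci hold fragments of the named gene was not tested.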
